A study of Homo sapiens with 19 samples.

Results

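The promoters of untreated MOLM-13 cells were sorted by 2 histone modifications, H3K27ac and H3K4me3. The members are 4 of the 19 libraries of the series, namely H3K27ac replicates 1 and 2 and H3K4me3 replicates 1 and 2, all of cells given the vehicle DMSO. MOLM-13 is a human acute myeloid leukaemia cell line, so each library is a culture of 1 line and not of a patient, and the labels do not say whether replicates came from separate cultures. The vehicle was given for 24 h, and the labels attach 0.1 µM to DMSO as to the compounds, for which its meaning is unclear. CUT&RUN was used, in which an antibody brings a nuclease to the marked nucleosomes and the released fragments are sequenced. The labels state at least 5000000 reads per library, as 150 bp paired ends, and the depth is otherwise unknown. The series compares such cells with cells given Corin, an inhibitor of LSD1 and of the deacetylases of the CoREST complex. Peak lists of 12 libraries were read here, and those of H3K4me2 and of Corin-treated cells (0.1 µM for 24 h) serve only to describe the classes below.

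H3K4me3 is laid down by SET1 and MLL complexes, chiefly at CpG-rich promoters, through subunits that recognise unmethylated CpG. H3K27ac is written by p300 and CBP and marks both active promoters and active enhancers. MOLM-13 carries a fusion of the MLL gene, and the HOXA genes and MEIS1 are known targets of such fusions in this leukaemia. Comparing both marks at 1 promoter sorts promoters by whether peaks of both, of only 1 or of neither were called. A missing peak does not show a missing mark.

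A promoter was the 1000 bp either side of the transcription start site (TSS) of a gene's canonical transcript. A mark was taken as present when both of its libraries had a peak there, and as absent when neither had one. Of 20033 protein-coding promoters, 5168 (25.8%) carried both marks, 2483 (12.4%) H3K4me3 only, 90 (0.449%) H3K27ac only and 9583 (47.8%) neither mark. The remaining 2709 (13.5%) had a peak in 1 of the 2 libraries of at least 1 mark and are called unsettled. H3K4me3 without H3K27ac was thus common, and H3K27ac without H3K4me3 was rare. The order of the first 2 classes turned when weak peaks were left out: both marks fell to 13.9% against 19.9% with H3K4me3 only at a peak score of at least 100, and to 16.6% against 19.7% with a matched number of peaks. Without H3K27ac replicate 2, H3K4me3 only stood at 20.3% and both marks at 28.6%. H3K27ac only stood at 0.784% without H3K27ac replicate 1 and at 0.694% without replicate 2. Among the 5298 promoters with H3K27ac in both libraries, 97.5% had H3K4me3 in both and 1.7% had it in neither. Among the 9802 with H3K4me3 in both, 52.7% had H3K27ac in both, 21.9% in 1 library and 25.3% in neither.

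The sequence before the TSS is shown for 4 myeloid genes, since most H3K27ac-only promoters hold few CpG sites, which are in capitals, and most promoters with H3K4me3 hold many. The stretches are the 250 bases before the start, read from hg38, 5′ to 3′ towards the gene. GFI1 carried both marks, and MPO, CTSG and CEBPE carried H3K27ac only.
GFI1, chr1:92486926-92487175 (minus strand): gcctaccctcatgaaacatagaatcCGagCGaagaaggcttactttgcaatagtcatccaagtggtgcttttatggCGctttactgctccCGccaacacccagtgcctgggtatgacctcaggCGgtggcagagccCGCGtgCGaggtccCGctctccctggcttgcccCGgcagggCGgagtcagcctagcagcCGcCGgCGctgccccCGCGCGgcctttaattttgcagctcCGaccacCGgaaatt
MPO, chr17:58280936-58281185 (minus strand): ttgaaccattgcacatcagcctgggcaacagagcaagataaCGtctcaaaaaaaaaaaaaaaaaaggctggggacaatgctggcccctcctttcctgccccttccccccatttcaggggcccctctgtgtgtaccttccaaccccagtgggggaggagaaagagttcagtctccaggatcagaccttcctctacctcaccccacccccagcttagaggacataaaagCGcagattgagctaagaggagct
CTSG, chr14:24576251-24576500 (minus strand): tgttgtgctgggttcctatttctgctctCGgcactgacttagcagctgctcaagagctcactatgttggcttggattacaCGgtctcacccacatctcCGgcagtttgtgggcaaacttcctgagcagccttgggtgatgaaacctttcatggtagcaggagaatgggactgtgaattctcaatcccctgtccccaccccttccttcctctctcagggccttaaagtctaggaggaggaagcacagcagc
CEBPE, chr14:23119256-23119505 (minus strand): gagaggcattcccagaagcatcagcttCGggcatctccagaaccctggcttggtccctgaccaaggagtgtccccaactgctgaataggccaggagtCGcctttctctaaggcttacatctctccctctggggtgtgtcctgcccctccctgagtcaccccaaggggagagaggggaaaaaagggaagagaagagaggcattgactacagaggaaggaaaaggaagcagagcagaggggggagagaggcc
The GFI1 stretch holds 19 CpG sites. The stretches of MPO and CEBPE hold 2 each and that of CTSG 3. Of the 8 motifs defined further on beside the TATA box, the GC box was found before GFI1, while none was found in the other 3 stretches.

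H3K27ac formed many narrow peaks, most of them away from promoters, and H3K4me3 formed fewer and wider peaks at promoters. The H3K27ac lists held 17599 peaks in replicate 1 and 19995 in replicate 2, and the H3K4me3 lists 11104 and 11343. The H3K4me3 number was lower by a factor of 1.67, a log2 ratio of -0.74 ± 0.13 (SD, n = 2 per mark). Median peak width was 453 and 450 bp for H3K27ac and 1101 and 1168 bp for H3K4me3, a 2.51-fold difference (log2 1.33 ± 0.06, SD, n = 2 per mark). H3K27ac covered 11.07 and 12.57 Mb, and H3K4me3 covered 14.22 and 14.96 Mb (log2 0.30 ± 0.14, SD, n = 2 per mark). The log2 ratio of covered length was larger without weak peaks, at 0.83 with a score of at least 100 and 0.73 with a matched number of peaks, while that of median width was smaller, at 0.85 and 0.89. Within 1000 bp of a canonical TSS lay 39.67% and 40.79% of H3K27ac peaks against 89.15% and 88.18% of H3K4me3 peaks. In each of these 4 measures the libraries of the marks did not overlap. The exact two-sided permutation p was 0.33 for each, the smallest that 2 libraries against 2 can give, so none could pass 0.05, and it measures only the spread between these libraries, which may be technical. The order of the peak numbers depends on weak H3K27ac peaks, since with a score of at least 100 the log2 ratio was 0.12. The same limit cuts more from the H3K27ac lists, whose median scores were 97 and 105, than from the H3K4me3 lists, at 332 and 458.

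The replicate lists of H3K4me3 resembled each other more than those of H3K27ac. The Jaccard index divides the bp shared by a pair of lists by the bp of their union. It was 0.813 for the pair of H3K4me3 lists and 0.396 for the pair of H3K27ac lists. Between marks it ran from 0.210 to 0.264. Of the unsettled promoters, 2151 had H3K4me3 in both libraries and H3K27ac in 1. Replicate 2 of H3K27ac alone accounted for 1587 of those 2151. Promoters with an H3K27ac peak numbered 5924 in replicate 1 and 6987 in replicate 2, against 9901 and 10145 with an H3K4me3 peak.

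The labelled cell type was checked against fixed markers. All 9 myeloid leukaemia markers (CD33, SPI1, CEBPA, FLT3, HOXA9, MEIS1, MPO, CSF3R and PTPRC) had a peak of at least 1 mark, and 7 of them carried both marks, against 25.8% of all promoters with both and 47.8% with neither. Of the 9, CD33, CEBPA, HOXA9 and PTPRC became unsettled at a score of at least 100 and with a matched number of peaks. The 9 markers are defining genes, and of the 92 genes of the 6 stem, myeloid and leukocyte lists below 34 (37.0%) carried neither mark. Of 29 markers of T, B, NK, erythroid, megakaryocytic, epithelial and mesenchymal cells, 28 had no peak of either mark in any of the 4 libraries. The other was the B cell gene CD79A, with a single H3K27ac peak of 226 bp in replicate 1. Many such promoters are poor in CpG, and 91.2% of all promoters with a CpG ratio under 0.4 carried neither mark. The longer lists of these cell types, given below, hold 4 genes outside this set with a mark in both of its libraries: TFRC, NCAM1, PECAM1 and NKG7.

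At promoters with both marks, peaks of either mark sat mainly downstream of the TSS and the H3K27ac peak lay mostly inside the H3K4me3 peak. There the H3K4me3 peak was centred downstream in 75% and 74.2% of cases and the H3K27ac peak in 62.3% and 63.3%. Coverage by H3K27ac peaks was highest 175 bp downstream, at 63.5% of these promoters in replicate 1 and 74.5% in replicate 2. The widest H3K27ac peak lay entirely within the widest H3K4me3 peak at 72.2% of promoters in the replicate 1 libraries and 73.8% in the replicate 2 libraries. Its width was a median 0.423 and 0.502 of the H3K4me3 width. At H3K27ac-only promoters the H3K27ac peak was centred downstream in 60.0% of cases in replicate 1 and 48.9% in replicate 2.

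**Figure D1:**
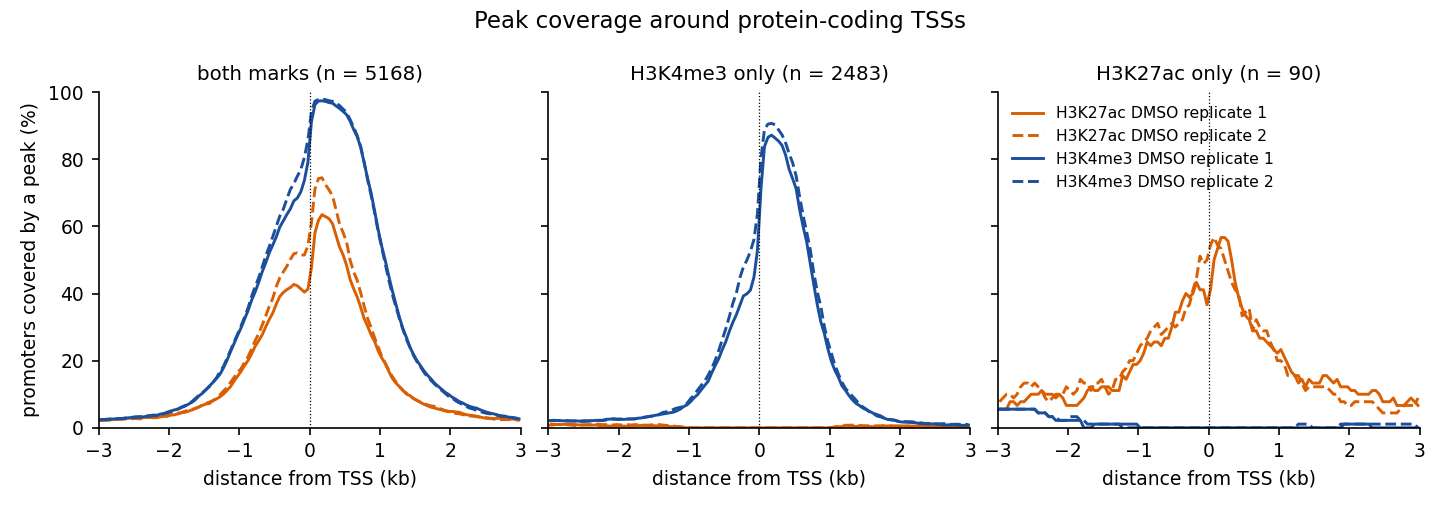
Percent of protein-coding promoters of each class covered by a peak, against distance from the TSS in kb (positive is downstream), with 1 line per library (solid replicate 1, dashed replicate 2). H3K27ac coverage of promoters with both marks peaks 175 bp downstream at 63.5% and 74.5%, and the lines of the mark that a class lacks stay at 0 within 1 kb because the class was so defined.

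The H3K4me3 peak was wider where H3K27ac was also present. Its median width at promoters with both marks was 1660 bp in replicate 1 and 1717 bp in replicate 2, against 880 and 986 bp at promoters with H3K4me3 only. The ratio was 1.81-fold (log2 0.86 ± 0.08, SD over 2 libraries). Peaks over 2000 bp were found at 33.6% and 37.0% of promoters with both marks and at 5.60% and 6.04% of those with H3K4me3 only. The classes still overlapped: the 90th percentile of H3K4me3-only widths was 1684 and 1784 bp, above the median of promoters with both marks. Widths are counted per promoter, so a peak over several TSSs counts at each. Another gene's TSS on the opposite strand lay within 1000 bp of 37.2% of promoters with both marks and 21.9% with H3K4me3 only. No test is given, since promoters of 1 library are not replicates.

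When all 9802 H3K4me3 promoters were ranked by the mean H3K4me3 width and split into 5 bins of equal number, the share with H3K27ac was higher in each wider bin. H3K27ac was present in both libraries at 21% of the narrowest bin (204 to 852 bp), then 38.7%, 54.5% and 68.5%, and at 80.9% of the widest (2102.5 to 9078.5 bp). It was absent from both at 54.8% of the narrowest and 5.92% of the widest. Each H3K27ac library showed the same order, from 28.5% to 84.0% in replicate 1 and from 37.8% to 90.9% in replicate 2. The median ratio of observed to expected CpG moved with width, from 0.751 to 0.840, and its part in the result was not tested. Here too a peak over several TSSs counts at each.

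**Figure D2:**
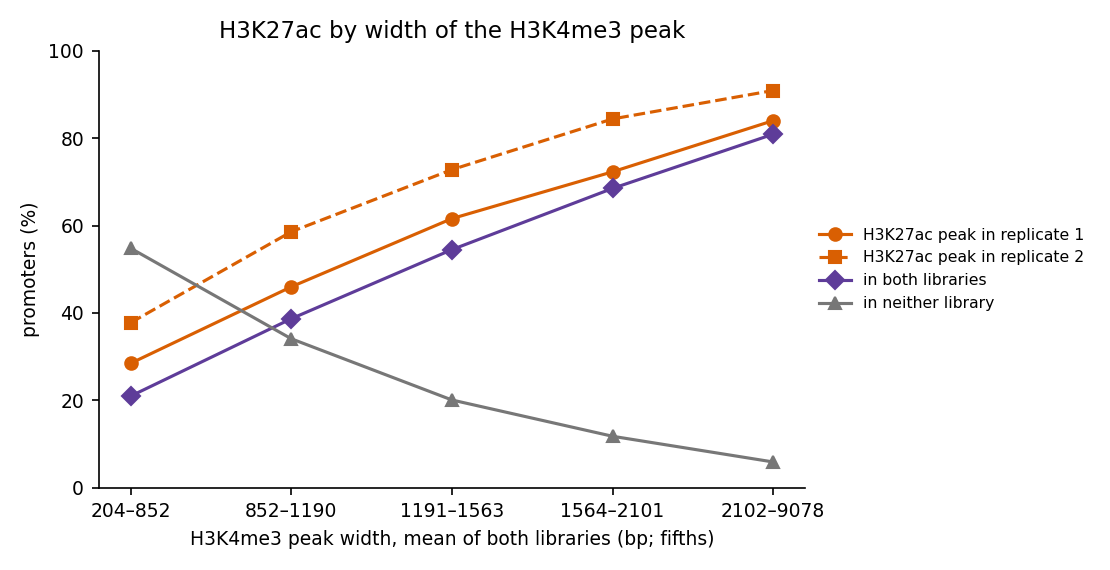
Percent of promoters with an H3K27ac peak (in replicate 1, in replicate 2, in both or in neither) in 5 bins of increasing H3K4me3 width in bp (mean of both libraries, 9802 protein-coding promoters). The share with H3K27ac in both libraries climbs from 21% to 80.9% and the share with none falls from 54.8% to 5.92%.

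For H3K27ac the width separated the classes less. The median H3K27ac peak measured 657 and 817 bp with H3K4me3 beside it and 552 and 627.5 bp without it, a 1.24-fold ratio (log2 0.32 ± 0.09, SD over 2 libraries). The order turned when weak peaks were left out, with a log2 ratio of -0.055 at a score of at least 100 and of -0.031 with 11104 top-scoring peaks in each list.

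The widest H3K4me3 peak with both marks lay over GFI1, a repressor that directs granulocyte differentiation, with 9294 and 8863 bp of H3K4me3 and H3K27ac peaks of 2284 and 7051 bp. HNRNPU, an RNA-binding nuclear scaffold protein, followed with a mean H3K4me3 width of 8444 ± 287 bp (SD, n = 2). BRD2, a bromodomain reader of acetylated histones, had 7726.5 ± 57.3 bp, and the fucosyltransferase FUT4, which makes the CD15 antigen of myeloid cells, 7399.5 ± 817 bp (SD, n = 2 each). BAHCC1 had 6975.5 ± 879 bp and the transcriptional repressor BCL11A 6762.5 ± 317 bp (SD, n = 2 each). BCL11A had narrow H3K27ac within that domain, with peaks of 528 and 383 bp.

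The widest H3K27ac peaks of promoters with both marks lay over LYST, a lysosomal trafficking regulator, at 5323.5 ± 162 bp, over the histone variant gene MACROH2A1 at 4973 ± 105 bp and over the myocyte enhancer factor MEF2D at 4964 ± 764 bp (SD, n = 2 each). DACH1 (4928 ± 438 bp), GFI1 (4667.5 ± 3370 bp) and the chloride channel gene CLIC1 (4645 ± 211 bp) came next. GFI1 thus ranks here on 1 library, since its peak was split in replicate 1. H3K27ac was the wider mark in both replicates at 136 of 5168 promoters (2.63%). Chosen from these after their values were seen, LAPTM5, a lysosomal membrane protein of blood cells, had H3K27ac peaks of 1187 and 1352 bp over H3K4me3 peaks of 945 and 1181 bp. At the promoter of NFE2, a transcription factor of the myeloid and erythroid lines, H3K27ac measured 1608 and 1572 bp and H3K4me3 1057 and 1027 bp.

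Wide H3K4me3 peaks without H3K27ac at the TSS were few. A mean width over 2000 bp was found at 136 of the 2483 H3K4me3-only promoters (5.48%), and at 31 of those 136 an H3K27ac peak lay farther along the same H3K4me3 peak in at least 1 library. The widest was over FOSL2, an AP-1 subunit, at 6067 ± 1.41 bp (SD, n = 2), with the nearest H3K27ac peak 1636 bp from the TSS. CFL1, the actin-severing protein cofilin, and the homeobox gene IRX5 also had H3K27ac just outside the window, at 1110 and 1639 bp. BBC3, a pro-apoptotic BCL2 family gene, had 4932 ± 468 bp of H3K4me3 with H3K27ac no nearer than 2492 bp. RNF151 reached its window only by the edge of a peak 882 bp from the TSS. HES7, a transcription factor of the somite clock, had 4465 ± 427 bp (SD, n = 2) and no H3K27ac within 27398 bp. For the class as a whole the nearest H3K27ac peak of either library lay a median 33093 bp from the TSS, and beyond 10 kb at 79.5% of promoters.

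Most H3K27ac-only promoters were poor in CpG, unlike most promoters of both classes with H3K4me3. The ratio of observed to expected CpG within 500 bp of the TSS had a median of 0.221 at H3K27ac-only promoters, 0.804 at promoters with both marks and 0.806 at H3K4me3-only promoters. It was 0.444 at promoters with neither mark and 0.725 over all 20033. A ratio under 0.4 was found at 79 of the 90 H3K27ac-only promoters (87.8%), against 140 of 5168 (2.71%) with both marks, 40 of 2483 (1.61%) with H3K4me3 only and 4514 of 9583 (47.1%) with neither mark. Both classes with H3K4me3 could hardly be told apart by this ratio.

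**Figure D3:**
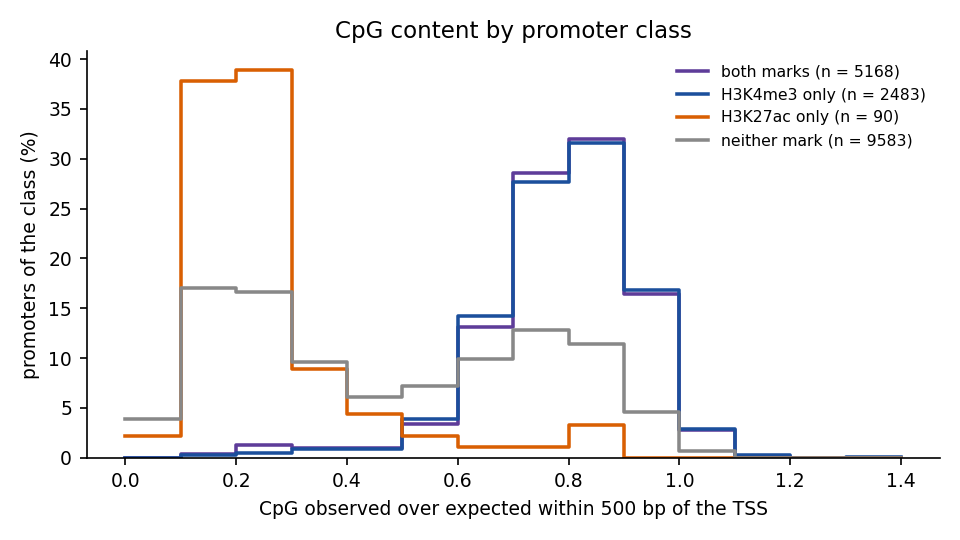
Percent of promoters of each class by the ratio of observed to expected CpG within 500 bp of the TSS, in steps of 0.1. Promoters with both marks and with H3K4me3 only share a mode above 0.7 (medians 0.804 and 0.806), while H3K27ac-only promoters lie mostly under 0.4 (median 0.221).

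Read the other way, CpG content went with whether an acetylated promoter also carried H3K4me3. Below a ratio of 0.2, 67 promoters had H3K27ac in both libraries, and 36 of them (53.7%) were H3K27ac only. From 0.2 to 0.4 it was 43 of 177 (24.3%), from 0.4 to 0.6 it was 6 of 232 (2.59%), and from 0.6 to 0.8 it was 2 of 2161 (0.0925%). The share of H3K4me3 promoters lacking H3K27ac moved little, between 18.2% and 26.0% over all 5 bins.

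Low-CpG promoters with H3K27ac could thus be compared with each other, 140 with both marks and 79 with H3K27ac only. Median H3K27ac width was 855 and 1016 bp where H3K4me3 was present and 556 and 655 bp where it was not. H3K4me3 peaks at the 140 promoters measured a median 1302 and 1296.5 bp. H3K4me2, a mark of promoters and enhancers alike, was found at 99.3% of the 140 in each DMSO library and at 89.9% and 92.4% of the 79. Most of the 79 thus held a peak of the dimethyl mark without one of the trimethyl mark.

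Short sequence motifs followed the same division. Motifs were sought on both strands from 250 bp before to 50 bp after the TSS, save for the TATA box, TATAAA on the sense strand 16 to 40 bp before it. The GC box bound by SP factors (GGGCGG) was found at 74.8% of promoters with both marks, 82.8% with H3K4me3 only, 22.2% with H3K27ac only and 61.4% of all. At a CpG ratio under 0.4 it was at 39.3%, 42.5% and 21.5% of these 3 classes and at 16.6% of all. The ETS motif CCGGAAG was found at 26.6%, 17% and 1.11% of the 3 classes and at 14.1% of all. The YY1 motif AAGATGGCG was found at 6.42%, 3.26% and 0.00%, and at 2.84% of all. These 3 motifs contain CpG, and so do the CRE (TGACGTCA: 4.16%, 3.06%, 2.22%, all 2.69%) and the NRF1 motif (GCATGCGC: 7.14%, 6.04%, 1.11%, all 4.27%). The CCAAT box was near its share in all promoters in each class (36.2%, 37.7%, 33.3%, all 36.1%).

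The motif of PU.1 (GAGGAAGT, which shares GGAAG with the ETS motif) was found at 10.0% of H3K27ac-only promoters, 2.71% with both marks, 2.13% with H3K4me3 only and 2.54% of all. PU.1, the product of SPI1, is a master regulator of myeloid genes. The RUNX motif AACCACA was found at 12.2%, 2.57%, 2.42% and 3.36% in that order. Among the 4952 promoters with a CpG ratio under 0.4, the PU.1 motif was at 11.4% of the H3K27ac-only ones, 14.3% of those with both marks and 3.92% of all. The RUNX motif was at 12.7%, 11.4% and 6.58% of these. At low-CpG promoters with H3K4me3 only the shares were 7.5% for PU.1 and 10.0% for RUNX, and with neither mark 3.23% and 6.07%. The TATA box was at 5.56% of H3K27ac-only promoters, 6.51% with neither mark and 3.94% of all, and among low-CpG promoters at 5.06% of the H3K27ac-only ones against 9.45% of all.

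The surroundings of the classes differed as well. Another gene's TSS on the opposite strand lay within 1000 bp of 37.2% of promoters with both marks, 21.9% with H3K4me3 only and 5.56% with H3K27ac only, against 18.8% of all. At least 1 H3K27ac region present in both libraries and away from every annotated TSS lay within 25 kb of 22.6%, 12.2% and 40% of the classes, against 12% of all. In the low-CpG promoters alone this share was 52.9% with both marks, 41.8% with H3K27ac only, 5.00% with H3K4me3 only and 9.29% of all. Over the genome, 6532 of 12872 H3K27ac regions common to both libraries (50.7%) lay more than 1000 bp from every annotated TSS. Of these 6532, 90.2% had no H3K4me3 in either library and 57.7% had H3K4me2 in both.

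Of the 92 genes of the 6 stem, myeloid and leukocyte lists, 5 were H3K27ac only (5.43%, against 0.449% of all promoters): MPO, CTSG, CEBPE, TYROBP and CD68. For the whole class the nearest H3K4me3 peak lay a median 38204.5 bp away, and 84 of the 90 stayed in the class when every annotated TSS of the gene was considered. ZC3H12D and EVL were among the 6 that moved to both marks. The 6 widest by rule were ZMYND8 (3573.5 ± 1480 bp), BTBD19 (3036 ± 96.2 bp), ZC3H12D (2975 ± 231 bp), MPO (2264 ± 1690 bp), EVL (1783.5 ± 473 bp) and PILRA (1483 ± 693 bp; SD, n = 2 each). ZMYND8 encodes a chromatin reader and PILRA an inhibitory receptor of myeloid cells.

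MPO encodes myeloperoxidase, the most abundant enzyme of the azurophil granule. Its H3K27ac peaks measured 1067 and 3461 bp, no H3K4me3 peak was found in either library, and the nearest lay 44884 bp away. Even H3K4me2 was scant there, with no peak in DMSO replicate 1 and 313 bp in replicate 2. It had 6 further H3K27ac regions within 25 kb. CTSG, the granule protease cathepsin G, had H3K27ac peaks of 532 and 1103 bp and its nearest H3K4me3 peak 132572 bp away. CEBPE, the C/EBP factor of late granulocyte differentiation, had H3K27ac peaks of 1288 and 599 bp and H3K4me3 no nearer than 109253 bp. Unlike MPO, both had wide H3K4me2 peaks, 2125 and 1882 bp at CTSG and 2077 and 2041 bp at CEBPE.

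TYROBP, the signalling adaptor of myeloid and NK receptors, had H3K27ac peaks of 835 and 831 bp. CD68, a lysosomal glycoprotein of macrophages, had 400 and 794 bp, with an H3K4me3 peak 1247 bp from its TSS in replicate 2. The adhesion molecule PECAM1 had 1106 and 994 bp, and it was the single gene of the epithelial and mesenchymal list with a mark. It is also expressed on leukocytes. Other members of the class, named after their values were seen, included the eosinophil granule ribonucleases RNASE2 (1544 and 695 bp) and RNASE3 (945 and 1425 bp). The neutrophil chemokine receptor CXCR2 had 533 and 346 bp. The lysosomal protease CTSS had 257 and 376 bp, and the inflammatory caspase CASP1 543 and 382 bp. CASP1 had no H3K4me3 peak within 986244 bp.

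MPO, CEBPE, TYROBP, PECAM1 and RNASE3 stayed in the class under all 11 alternative settings tried, and CTSG under 10. CD68 did so under 8, CTSS under 7, and CASP1 and CXCR2 under 9 each. At a score of at least 100 and with a matched number of peaks CASP1 carried neither mark and CXCR2 was unsettled. Of the 90 promoters, 34 (37.8%) kept the class under all 11.

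**Figure D4:**
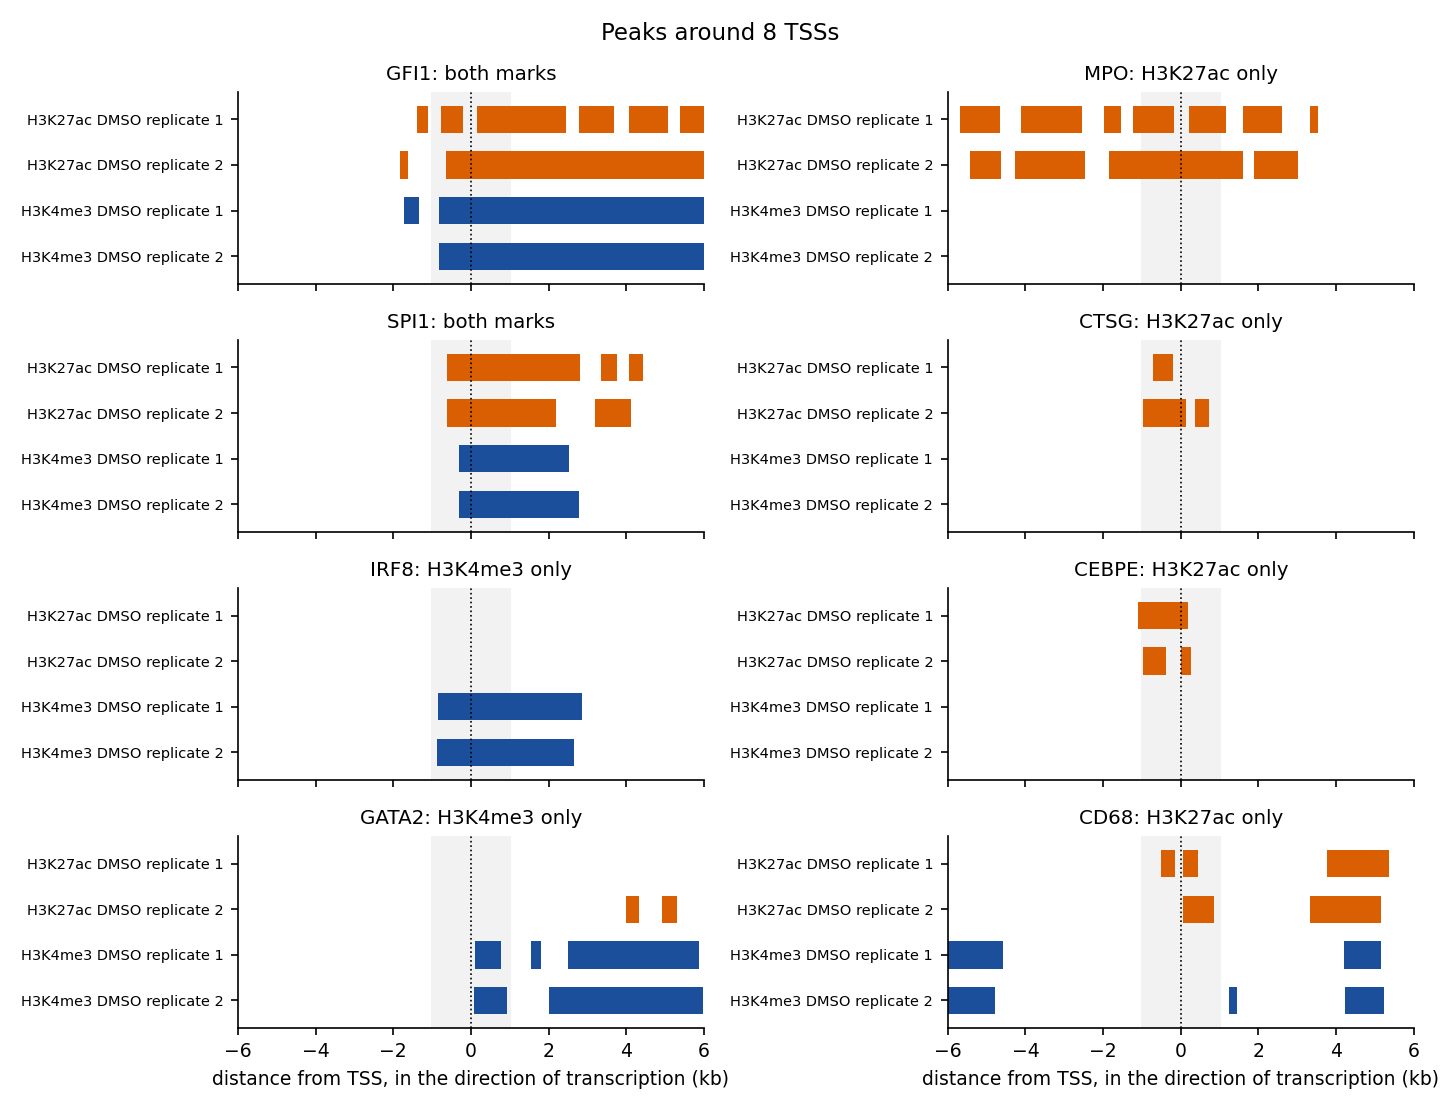
Peaks of the 4 libraries within 6 kb of 8 TSSs, drawn to scale in the direction of transcription, with the promoter window of 1 kb either side shaded (orange H3K27ac, blue H3K4me3). GFI1 and SPI1 show both marks, IRF8 and GATA2 no H3K27ac in the window, and MPO, CTSG and CEBPE no H3K4me3 in the whole stretch, whereas CD68 has H3K4me3 just outside its window in replicate 2.

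Many transcription factors of blood stem cells and myeloid cells carried both marks. Of 17 stem and progenitor factors, 9 carried both marks (52.9%), 1 H3K4me3 only, 4 neither and 3 were unsettled, against 25.8%, 12.4% and 47.8% of all promoters in the first 3 classes. The list is rich in CpG (median ratio 0.867), and of the 6744 promoters with a ratio of at least 0.8, 2652 carried both marks. At a score of at least 100, 6 of the 17 genes carried both marks. MYB, a factor of progenitor growth, had H3K27ac peaks of 2793 and 4316 bp and H3K4me3 peaks of 4368 and 4292 bp. HOXA9, the homeobox gene activated in MLL leukaemia, had H3K4me3 peaks of 5996 and 5896 bp but H3K27ac of 434 and 1224 bp, and became unsettled under 3 of the 11 alternatives. Its cofactor MEIS1 was unsettled, with 6942 and 5923 bp of H3K4me3 and an H3K27ac peak of 281 bp in replicate 2 alone, and carried both marks over all annotated starts or in a 2000 bp window. RUNX1 was unsettled at its canonical start, with H3K27ac in replicate 1 alone (848 bp), and carried both marks when its other starts were counted. TAL1, HLF, ERG and MECOM carried neither mark.

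GATA2, a factor of stem cells and mast cells, was H3K4me3 only at its canonical start, with peaks of 679 and 843 bp. That call is bound to the start chosen: wider H3K4me3 peaks lay 2 to 6 kb downstream, H3K27ac lay 3998 bp from the TSS, and over all annotated starts the gene was unsettled.

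Of 14 myeloid factors, 7 carried both marks (50%), 3 H3K4me3 only, 1 H3K27ac only (CEBPE), 2 neither and 1 was unsettled, against 25.8%, 12.4%, 0.449% and 47.8% of all promoters in the first 4 classes. This list too is rich in CpG (median ratio 0.838), and of the 6744 promoters with a ratio of at least 0.8, 2652 carried both marks. At a score of at least 100, 5 of the 14 factors carried both marks. SPI1 had H3K27ac peaks of 3442 and 2808 bp and H3K4me3 of 2841 and 3081 bp, although its promoter is poor in CpG (0.29). CEBPA, the C/EBP factor that starts granulocyte differentiation, had H3K4me3 peaks of 5158 and 4970 bp and H3K27ac of 271 and 1661 bp. CEBPA became unsettled under 4 of the 11 alternatives, so its H3K27ac is the weaker of its calls. CEBPB had 2711 and 2677 bp of H3K4me3 with 1220 and 1011 bp of H3K27ac.

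The 3 myeloid factors with H3K4me3 only were IRF8, EGR2 and KLF4, all of them known for roles in monocyte differentiation. IRF8 had H3K4me3 peaks of 3713 and 3535 bp, and its nearest H3K27ac peak lay 20083 bp away. Among the H3K4me3-only promoters such a width is unusual, since 90% of the class measured under 1684 bp in replicate 1. EGR2 had narrow H3K4me3 (226 and 415 bp), as had KLF4 (299 and 478 bp). None of the 3 had an H3K27ac peak in either Corin library, where 39.6% and 34.4% of all H3K4me3-only promoters had one. All 3 stayed in the class under all 11 alternatives.

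Granule genes were found in several classes. Of 12, 5 carried both marks (41.7%), 2 H3K27ac only (MPO and CTSG), 4 neither and 1 was unsettled, and none carried H3K4me3 only. Over all promoters 25.8% carried both marks, 12.4% H3K4me3 only, 0.449% H3K27ac only and 47.8% neither. The list is poor in CpG (median ratio 0.278). Of the 4952 promoters with a ratio under 0.4, 140 carried both marks, 40 H3K4me3 only and 79 H3K27ac only. The lack of H3K4me3-only genes thus lies near the share over such promoters. At a score of at least 100 the list held 2 genes with both marks and 1 with H3K27ac only. AZU1, PRTN3, ELANE and CFD, serine protease genes that adjoin each other, all carried both marks, and as neighbours they are not independent. PRTN3, proteinase 3, had H3K4me3 peaks of 3484 and 3665 bp and H3K27ac of 995 and 1749 bp. At ELANE, neutrophil elastase, H3K4me3 measured 1849 and 1904 bp and H3K27ac 430 and 1476 bp. SRGN, the proteoglycan serglycin that packs granule proteases, had 4534 and 5054 bp of H3K4me3 and 17 further H3K27ac regions within 25 kb. LTF, CAMP, BPI and MS4A3 carried neither mark, the first 2 being proteins of the specific granules formed later.

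Growth factor receptors and leukocyte surface genes were mixed. Of 13 receptors, 4 carried both marks (30.8%), 5 neither (38.5%) and 4 were unsettled, shares near those of all promoters (25.8% and 47.8%). FLT3, the receptor tyrosine kinase often mutated in this leukaemia, had H3K27ac of 2349 and 975 bp and H3K4me3 of 2730 and 2545 bp. CSF3R, the G-CSF receptor, had H3K27ac of 617 and 1727 bp over H3K4me3 of 867 and 779 bp. KIT and CSF1R were among those with neither mark. CSF2RA and IL3RA also counted as neither, but no peak of either mark lay within 1552350 bp of them, on the part of X shared with Y, so whether reads there were counted is unknown.

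Of 16 leukocyte surface genes, 7 carried both marks (43.8%), 4 H3K4me3 only, 1 H3K27ac only (TYROBP), 3 neither and 1 was unsettled. Over all promoters the shares were 25.8% for both marks, 12.4% for H3K4me3 only, 0.449% for H3K27ac only and 47.8% for neither. The list is poor in CpG (median ratio 0.282). Of the 4952 promoters with a ratio under 0.4, 140 carried both marks, 40 H3K4me3 only and 79 H3K27ac only. Both marks were found at 4 of the 16 genes at a score of at least 100. The pan-leukocyte phosphatase PTPRC had narrow peaks of both, 707 and 303 bp of H3K27ac and 541 and 304 bp of H3K4me3, and became unsettled under 4 of the 11 alternatives. SPN, the sialophorin CD43, had 4114 and 4651 bp of H3K4me3 and 2072 and 2484 bp of H3K27ac on a CpG-poor promoter (0.22). The 4 with H3K4me3 only were the adhesion genes CD44 (847 and 983 bp) and ITGB2 (1243 and 1697 bp), the "do not eat me" signal CD47 (1469 and 1764 bp) and the tetraspanin CD37 (593 and 437 bp). Of these, CD47 had an H3K27ac peak in both Corin libraries (818 and 885 bp), as had 22.8% of all H3K4me3-only promoters.

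Genes of mature monocytes and of other blood lineages were mostly without either mark. Of 20 monocyte and macrophage genes 16 carried neither, among them CD14, ITGAM and the calprotectin genes S100A8 and S100A9. CD4 carried both marks, with H3K27ac of 1626 and 803 bp and H3K4me3 of 1423 and 720 bp. TLR2, a receptor for bacterial lipoproteins, carried H3K4me3 only (1124 and 1124 bp). Neither mark was found at 9 of 10 MHC class II genes, 18 of 19 T cell genes, 12 of 13 B cell genes, 9 of 11 NK cell genes and 19 of 20 erythroid and megakaryocyte genes. Over all promoters this share was 47.8%, but over the 4952 with a CpG ratio under 0.4, to which many of these genes belong, it was 91.2%, near the shares of these lists. The exception of the last list was the transferrin receptor TFRC, a gene of all dividing cells, which carried both marks. Near-identical genes such as HBA1 and HBA2 cannot be told apart where reads map to both.

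Set side by side, the 6 stem, myeloid and leukocyte lists hold 92 genes, of which 33 (35.9%) carried both marks, 9 (9.78%) H3K4me3 only and 5 (5.43%) H3K27ac only. The shares over all protein-coding promoters were 25.8%, 12.4% and 0.449%. The 5 lymphoid, MHC class II and erythroid lists hold 73 genes, of which 1, 1 and 0 fell in these classes. Both groups of lists are poor in CpG, with a ratio under 0.4 at 47 of the 92 and 52 of the 73. Of these low-CpG promoters, 19 of 47 and 0 of 52 carried both marks or H3K27ac only, against 219 of all 4952 (4.42%), so the count of 0 lies near the share over all such promoters. Of the 92 genes, 20 of the 33 with both marks, 6 of the 9 with H3K4me3 only and 3 of the 5 with H3K27ac only kept their class under all 11 alternatives. Of 16 known targets of MLL fusions, 10 carried both marks (62.5%), 1 H3K4me3 only (HOXA3, 3305 and 3214 bp), 1 neither (HOXA5) and 4 were unsettled. The targets are rich in CpG (median ratio 0.891), and of the 6744 promoters with a ratio of at least 0.8, 2652 carried both marks. SENP6, a SUMO protease gene, was one of those whose H3K27ac (4039 and 4211 bp) exceeded its H3K4me3 (3164 and 3210 bp). CDK6 had H3K27ac of 5097 and 2480 bp and H3K4me3 of 6520 and 6673 bp. These lists were chosen with earlier results of these data known.

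**Figure D5:**
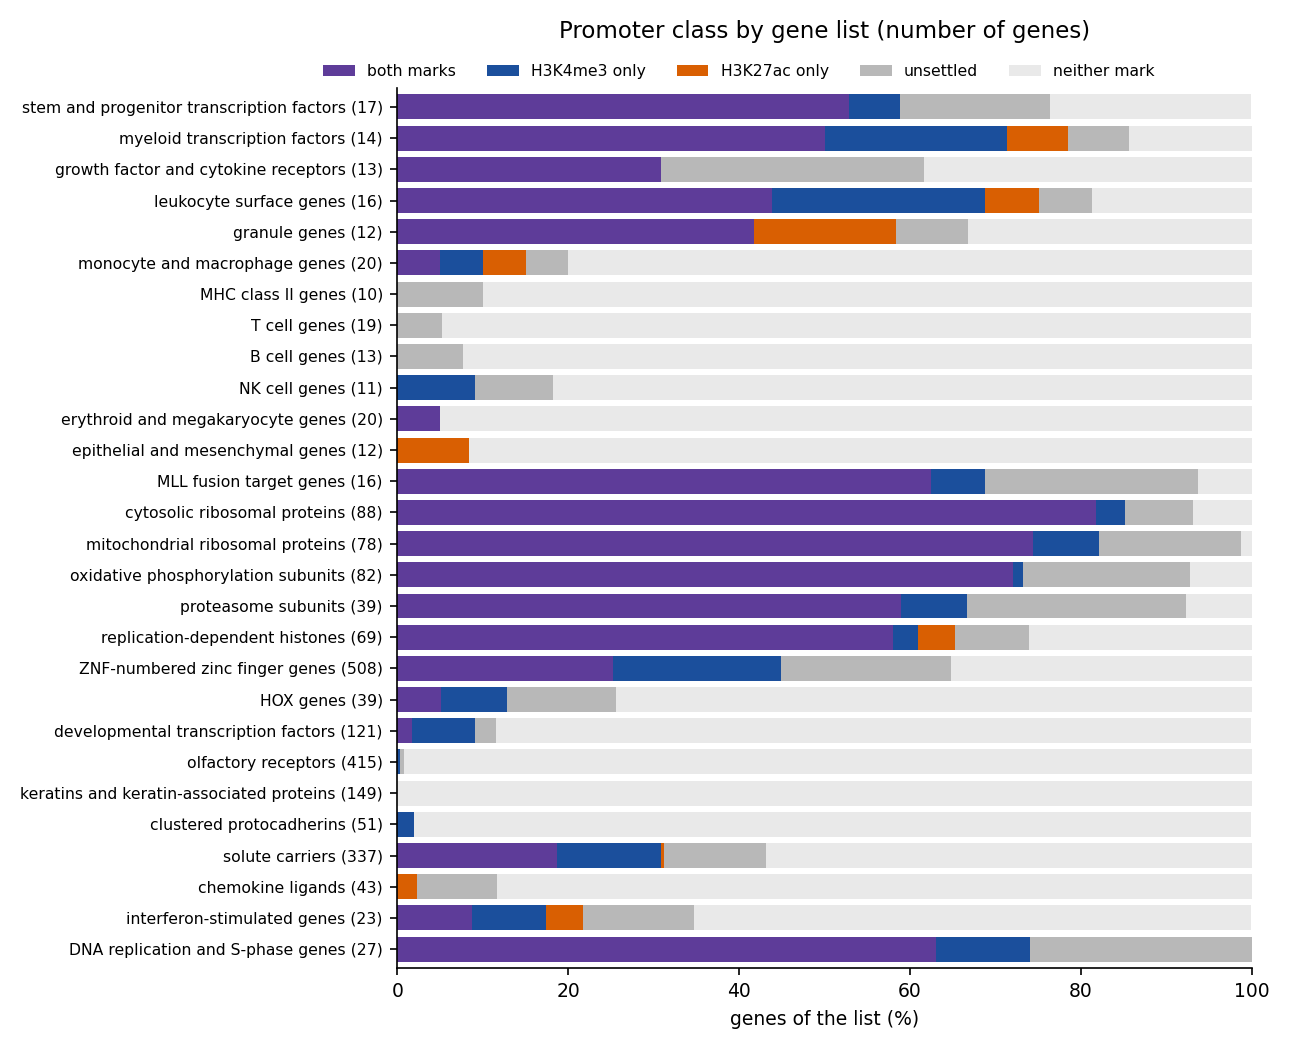
Percent of each gene list in each promoter class, with the number of genes in parentheses, for 28 lists. Housekeeping lists (ribosomal proteins, oxidative phosphorylation) are mostly both marks, lymphoid and erythroid lists mostly neither, and H3K27ac only holds 2 of 12 granule genes (16.7%), 1 of 12 with a score of at least 100.

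Housekeeping gene classes carried both marks more often than all promoters did (25.8%, with H3K4me3 only at 12.4%). Both marks were found at 72 of 88 cytosolic ribosomal protein genes (81.8%), 58 of 78 mitochondrial ribosomal protein genes (74.4%) and 59 of 82 oxidative phosphorylation genes (72.0%). H3K4me3 only was found at 3, 6 and 1 of them, and H3K27ac only at 0. Both marks were also found at 23 of 39 proteasome genes (59.0%) and 17 of 27 DNA replication genes (63.0%), with H3K4me3 only at 3 of each. These lists are rich in CpG, with median ratios from 0.737 to 0.832. Of the 6534 promoters with a ratio from 0.6 to 0.8, 2153 carried both marks, and of the 6744 from 0.8, 2652 did. At a score of at least 100 the classes drew closer, with both marks at 13.9% and H3K4me3 only at 19.9% of all promoters. Both marks were then found at 45 cytosolic and 27 mitochondrial ribosomal protein genes and at 31 oxidative phosphorylation genes, with H3K4me3 only at 10, 22 and 18. Proteasome genes stood at 12 against 12 and DNA replication genes at 10 against 9.

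H3K4me3 without H3K27ac was more frequent at zinc finger genes than over all promoters (12.4%). Of 508 ZNF-numbered zinc finger genes, 128 (25.2%, against 25.8% of all) carried both marks and 100 (19.7%) H3K4me3 only. At a score of at least 100, 71 of the 508 carried both marks, against 13.9% of all promoters. With a matched number of peaks 161 carried H3K4me3 only, against 19.7% of all promoters. Of 121 developmental transcription factors, 2 carried both marks, 9 (7.44%) H3K4me3 only and 107 neither. Of 39 HOX genes, 2 carried both marks, 3 H3K4me3 only, 29 neither and 5 were unsettled. For H3K4me3 only the solute carrier genes lay near all promoters, with 41 of 337 (12.2%), while 63 (18.7%, against 25.8% of all) carried both marks. At a score of at least 100, 26 of the 337 carried both marks, against 13.9% of all promoters. Without H3K27ac replicate 2, 68 carried H3K4me3 only, against 20.3% of all promoters. Olfactory receptors (412 of 415), keratins (149 of 149) and clustered protocadherins (50 of 51) carried neither, against 47.8% of all promoters and 91.2% of those with a CpG ratio under 0.4. The first 2 lists are poor in CpG, with median ratios of 0.166 and 0.228.

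Replication-dependent histone genes were unusual in holding H3K27ac-only members although they are rich in CpG. Of 69, 40 carried both marks (58.0%), 2 H3K4me3 only and 3 H3K27ac only, against 25.8%, 12.4% and 0.449% of all promoters. The H3K27ac-only count was 2 at a score of at least 100 and 5 without H3K4me3 replicate 2. H2AC14 and H2BC14 share 1 H3K27ac peak of 1675 and 1218 bp, so they count as a single site, and H4C3 had peaks of 608 and 696 bp. H2AC14 and H4C3 both had a CpG ratio of 0.85. Their nearest H3K4me3 peaks lay 3655 and 19436 bp away. H2AC14 and H2BC14 kept the class under all 11 alternatives, while H4C3 became unsettled at a score of at least 100 and with a matched number of peaks.

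Among immune response genes the H3K27ac-only class held the chemokine CCL5 (370 and 361 bp), the single chemokine gene of 43 with a settled mark. The list is poor in CpG (median ratio 0.188). Of the 43, 38 (88.4%) carried neither mark, near the 91.2% of promoters with a ratio under 0.4. H3K27ac only was found at 0.449% of all promoters and at 79 of the 4952 with a ratio under 0.4. With presence in either library it was found at 4 of the 43. The H3K27ac-only class also held IRF9, the DNA-binding subunit of the interferon-activated factor (305 and 295 bp). IRF9 carried neither mark at a score of at least 100 or with a matched number of peaks. Of the 23 interferon-stimulated genes, 2 carried both marks (8.70%), 2 H3K4me3 only and 15 neither (65.2%), against 25.8%, 12.4% and 47.8% of all promoters. The list is poor in CpG (median ratio 0.306). Of the 4952 promoters with a ratio under 0.4, 140 carried both marks, 40 H3K4me3 only and 91.2% neither. None of the 23 genes carried both marks at a score of at least 100.

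Of 18866 promoters of long non-coding RNAs, 1426 (7.56%) carried both marks, 776 (4.11%) H3K4me3 only, 181 (0.959%) H3K27ac only and 15514 (82.2%) neither. A protein-coding TSS lay within 1000 bp of 73.6% of those with both marks and 59.8% of those with H3K4me3 only, but of 1.66% of those with H3K27ac only. Within that distance the windows of both genes overlap, so they can share a peak. Of the 16053 away from protein-coding starts, 377 (2.35%) carried both marks and 178 (1.11%) H3K27ac only. Over all long non-coding RNA promoters the width ratios were 1.87-fold for H3K4me3 (log2 0.90 ± 0.12) and 1.14-fold for H3K27ac (log2 0.18 ± 0.13, SD over 2 libraries each). Many of these promoters can share a peak with a protein-coding gene, so the ratios are not independent of the protein-coding ones.

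The other libraries, which took no part in the sorting, showed how far the classes carried over. H3K4me2 of DMSO-treated cells was found at 98.8% and 99.3% of promoters with both marks, 98.3% and 99.4% with H3K4me3 only, 88.9% and 91.1% with H3K27ac only and 18.4% and 21.8% with neither. In Corin-treated cells H3K27ac was found at 99.3% and 98.2% of promoters with both marks and at 39.6% and 34.4% of H3K4me3-only promoters. In both Corin libraries it was found at 565 of the 2483 (22.8%). At the 9583 promoters with neither mark this held for 70 (0.730%). H3K4me3 of Corin-treated cells was found at 22.2% of the H3K27ac-only promoters in each library, and at 14 of the 90 (15.6%) in both. The Corin H3K27ac lists held 34424 and 30029 peaks, more than those of DMSO, and the part of that number in these shares was not tested.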

How the data were processed

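Peaks of 2 H3K27ac and 2 H3K4me3 CUT&RUN libraries were compared. The submitters' processing notes name Trim Galore, Bowtie2, Picard and MACS2 and the builds GRCh38 and hg38, and their settings and versions are not given in the sources used here. The authors deposited 1 peak list per library, with chromosome, start, end and a score per peak. The deposited score is a whole number of at least 50 whose definition is not stated, so it served only to order the peaks of a list or, as an alternative, to apply 1 limit to all lists, whose scores may not be comparable between marks. All 292523 peaks of the 12 lists lie within hg38 chromosomes. No IgG list was analysed here, and whether the deposited peaks were called against IgG is unknown.

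Classes were set over canonical TSSs of GENCODE 44 (20033 protein-coding and 18866 lncRNA genes) with Python 3.11.15, pandas 2.3.3 and numpy 2.4.6. A peak counted with at least 1 bp in the window, and a promoter's width is that of its widest peak. On simulated promoters the classes were recovered at 100.0% of 15345 genes. Libraries of the marks were compared by exact two-sided permutation tests. Named genes were the members of the haematopoietic lists and, per class and mark, the 6 genes with the widest peak, 1 gene per peak, and some items are not reported here. Members and lists were chosen with earlier results of these data known. Alternatives were a score of at least 100, a matched number of peaks, windows of 500 and 2000 bp, an overlap of 200 bp, every basic TSS, presence in either library and each library left out.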

Additional observations from a re-analysis of the deposited data

How the results depend on the processing

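The 4 comparisons of the marks and the 5 class results were recomputed in 84 ways, of which 3 reversed the direction. No comparison of the marks could change its side of 0.05. Of the class results, 17 values moved, a share by over 1.5 times or a width ratio by over 1 SD between libraries. With a score of at least 100 the log2 ratio of peak number turned to 0.12, and a matched number of peaks leaves no such ratio. The log2 ratio of covered length was 0.83 at that score and 0.73 with matched numbers, and that of median width 0.85 and 0.89. That score gave 13.9% of promoters with both marks, 19.9% with H3K4me3 only and 0.265% with H3K27ac only. The log2 width ratios were then 0.76 for H3K4me3 and -0.055 for H3K27ac. With 11104 top-scoring peaks per list the percentages were 16.6%, 19.7% and 0.26%, and the H3K27ac width ratio was -0.031. Presence in either library gave 1.03% with H3K27ac only and an H3K27ac width ratio of 0.48. Leaving out 1 library at a time moved the share with both marks between 25.8% and 33.7%, H3K4me3 only between 12.8% and 20.3% and H3K27ac only between 0.489% and 0.784%. The width ratios ran from 0.65 to 0.95 for H3K4me3 and from 0.30 to 0.55 for H3K27ac. The share with H3K4me3 only reached 20.3% without H3K27ac replicate 2, and that with H3K27ac only 0.784% without H3K27ac replicate 1 and 0.694% without H3K27ac replicate 2. These shifts are unsettled promoters that 1 library then decides, such as the 1587 with H3K4me3 in both libraries and H3K27ac in replicate 2 alone. The causes of the other changes were not tested. With 1 library left out at a time, the range was -0.83 to -0.65 for peak number and 0.22 to 0.40 for covered length. It was 1.29 to 1.37 for median width and 47.9 to 49.0 points for the share near a TSS. Replicate numbers are shared by label only. Deviations of same-numbered H3K27ac and H3K4me3 libraries correlated at 0.142 over 20033 genes, with 2 pairs. With the replicate block the values were -0.74, 0.31, 48.4 and 1.33 in the order number, length, share and width, each with an exact sign-flip p of 0.5, the smallest that 2 pairs allow. Over all 11 alternatives 2650 of the 5168 promoters with both marks, 1984 of the 2483 with H3K4me3 only and 34 of the 90 with H3K27ac only kept their class. The depth is unknown, so a missing peak does not show a missing mark.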
